A study of Mus musculus with 16 samples.

Results

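Interferon-stimulated genes are the genes that a cell switches on when interferon reaches it, and they are described here in group 2 innate lymphoid cells (ILC2s) of the mouse after IL-33. ILC2s are tissue-resident lymphocytes that answer IL-33, a cytokine released by damaged or stressed epithelium, with type 2 cytokines. The genes are a list of 40 named interferon-stimulated genes, taken wherever the array had a probe set with 1 gene symbol, and that left 34 members of the 22180 genes measured. Oas1a, Gbp2, Dtx3l, Ifi27l2a, Ifi47 and Ifi44 had no such probe set and were not analysed here. The cells came from naive lung (2 arrays), from lung at day 4 (3 arrays), week 2 (3 arrays) and 4 months (2 arrays) after intranasal IL-33, and from the lung-draining mediastinal lymph node (mLN) at day 4 (3 arrays) and week 2 (3 arrays) after the same treatment. The naive lung arrays are the untreated reference. No naive node group was among the samples, so node levels were compared over time and with lung. The lung labels give the strain as C57BL/6J, while the node labels give neither strain nor cell type beyond the sample title. The arrays are titled as biological replicates. The sources used here do not say whether an array holds 1 animal or a pool, how old the mice were, or which markers the sort used.

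Type I interferons act through the receptor chains Ifnar1 and Ifnar2, and type II interferon (Ifng) acts through Ifngr1 and Ifngr2. Both receptors act through Jak kinases, and the signal ends at DNA elements named the interferon-stimulated response element, which Stat2 and Irf9 help to bind, and the gamma-activated site. The genes below encode sensors of viral RNA, proteins that block viral translation, replication or release, and feedback inhibitors of the pathway, and many are known to respond to type I and type II interferon alike.

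Values are log2 signals after RMA, a method that corrects background, normalizes arrays and summarises the probes of each set. The deposited arrays did not share a distribution: the interquartile range over genes was 2.39 to 2.45 on the naive arrays and 2.05 to 2.47 at 4 months, against 2.85 to 3.07 in the other groups. A difference of 1 is a 2-fold difference, levels are compared only within a gene, and fewer cells of a type and less RNA per cell cannot be told apart. The number of arrays limits the precision. A gene is called higher or lower where the limma adjusted p over all 22180 genes is under 0.05. All 13 measured ILC2 markers together averaged between 8.97 and 9.60 on every array. Single markers of that list still moved, with 5 called higher and 1 lower at day 4 than in naive lung (changes from -0.87 to 1.95). Of all genes, 10.8% were called higher and 5.73% lower there. The 11 T cell markers averaged 6.57 and 6.71 on the naive arrays against 5.14 to 5.63 elsewhere. The 16 macrophage and monocyte markers averaged 6.00 and 6.03 on day 4 lung replicates 1 and 2 and 5.68 on week 2 lung replicate 3, against 4.42 to 4.66 on the other arrays of those groups, 4.72 and 5.42 in naive cells, 4.91 and 5.23 at 4 months and 4.08 to 4.26 in the node. The 8 neutrophil markers averaged 4.88 and 3.54 in naive cells, and 4.90, 4.67 and 3.21 at day 4 in lung. They averaged 3.69, 3.21 and 4.52 at week 2 in lung, 4.98 and 4.82 at 4 months and 2.87 to 3.03 in the node. The fits below that leave out 3 macrophage-high lung arrays keep naive replicate 1 and both 4-month arrays. The part of the neutrophil markers in the results was not tested. Arrays of 1 group correlated least in the naive (r = 0.937) and 4-month (r = 0.947) groups, and at least 0.977 in the others.

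Some promoters of these genes hold the core of the element through which interferon acts, and a few of them are shown first. RefSeq promoters (GRCm38.p6, 250 bases before to 50 after the start) were found for 24 of the 34 members. The core of the interferon-stimulated response element, searched on both strands as GAAA, any 2 bases and GAAA again, was present in the promoter of 15 of these 24 genes (62.5%), against 657 of the 16990 tested genes with a promoter (3.87%). The core TTCNNNGAA of the gamma-activated site, searched in the same way, was present in 7 of 24 (29.2%) against 9.15%. Matches of a motif could overlap each other or those of the other motif. Below are windows around the response element in members whose values are described in the comparisons that follow, with the matches in capitals on the gene's own strand, where TTTC, 2 bases and TTTC is the same motif on the opposite strand.
Isg15 (chr4:156200855-156200916, minus strand): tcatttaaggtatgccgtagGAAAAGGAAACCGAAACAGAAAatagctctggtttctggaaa
Ifit1 (chr19:34640765-34640833, plus strand): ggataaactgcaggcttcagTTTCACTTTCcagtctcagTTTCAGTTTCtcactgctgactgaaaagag
Bst2 (chr8:71537567-71537622, minus strand): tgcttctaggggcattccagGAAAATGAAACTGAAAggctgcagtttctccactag
Rsad2 (chr12:26456543-26456592, minus strand): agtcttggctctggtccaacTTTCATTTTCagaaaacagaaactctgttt
Oas3 (chr5:120777705-120777754, minus strand): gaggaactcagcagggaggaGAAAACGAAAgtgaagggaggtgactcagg
Igtp (chr11:58199502-58199551, plus strand): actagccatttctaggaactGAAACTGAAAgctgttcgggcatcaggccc

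The Isg15 window held 3 overlapping matches, the Ifit1 window 2 separate matches and the Bst2 window 2 overlapping matches, while the other windows held 1 each. Ifit3 and Ifit3b, neighbouring copies on the same chromosome as Ifit1 that were not called between naive, day 4 and week 2, had 2 matches each in a window that was identical between them.
Ifit3 (chr19:34583353-34583436, plus strand): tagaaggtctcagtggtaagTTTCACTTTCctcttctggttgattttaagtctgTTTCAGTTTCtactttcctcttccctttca
Ifit3b (chr19:34607749-34607832, plus strand): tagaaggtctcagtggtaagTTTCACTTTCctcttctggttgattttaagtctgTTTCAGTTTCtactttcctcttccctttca

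The longest run shared by the Ifit3 and Ifit3b promoters was 169 of 300 bases, against 13 bases between Ifit3 and Ifit1. Among members with a promoter, the response element was present in 11 of the 15 that were lower at week 2 than at day 4 in lung (73.3%) and in 4 of the 9 that were not called (44.4%). The gamma-activated site was present in 3 of those 15 and in 4 of those 9. A match is a stretch of letters and does not show that a factor was bound.

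Interferon-stimulated genes were broadly higher in lung ILC2s 4 days after IL-33 than in naive lung ILC2s. Of the 34 members, 27 were called higher and none lower, where 10.8% of all genes were called higher and 5.73% lower. The median member change was 1.39 on the log2 scale, against -0.06 over all genes. All 27 had day 4 arrays that did not overlap the naive arrays. That count covers only members already called, has no share over all genes beside it and adds no support to the calls. The mean over the 34 members was 4.99 and 5.16 in naive cells and rose to 6.33, 6.49 and 6.38 by day 4.

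**Figure D1:**
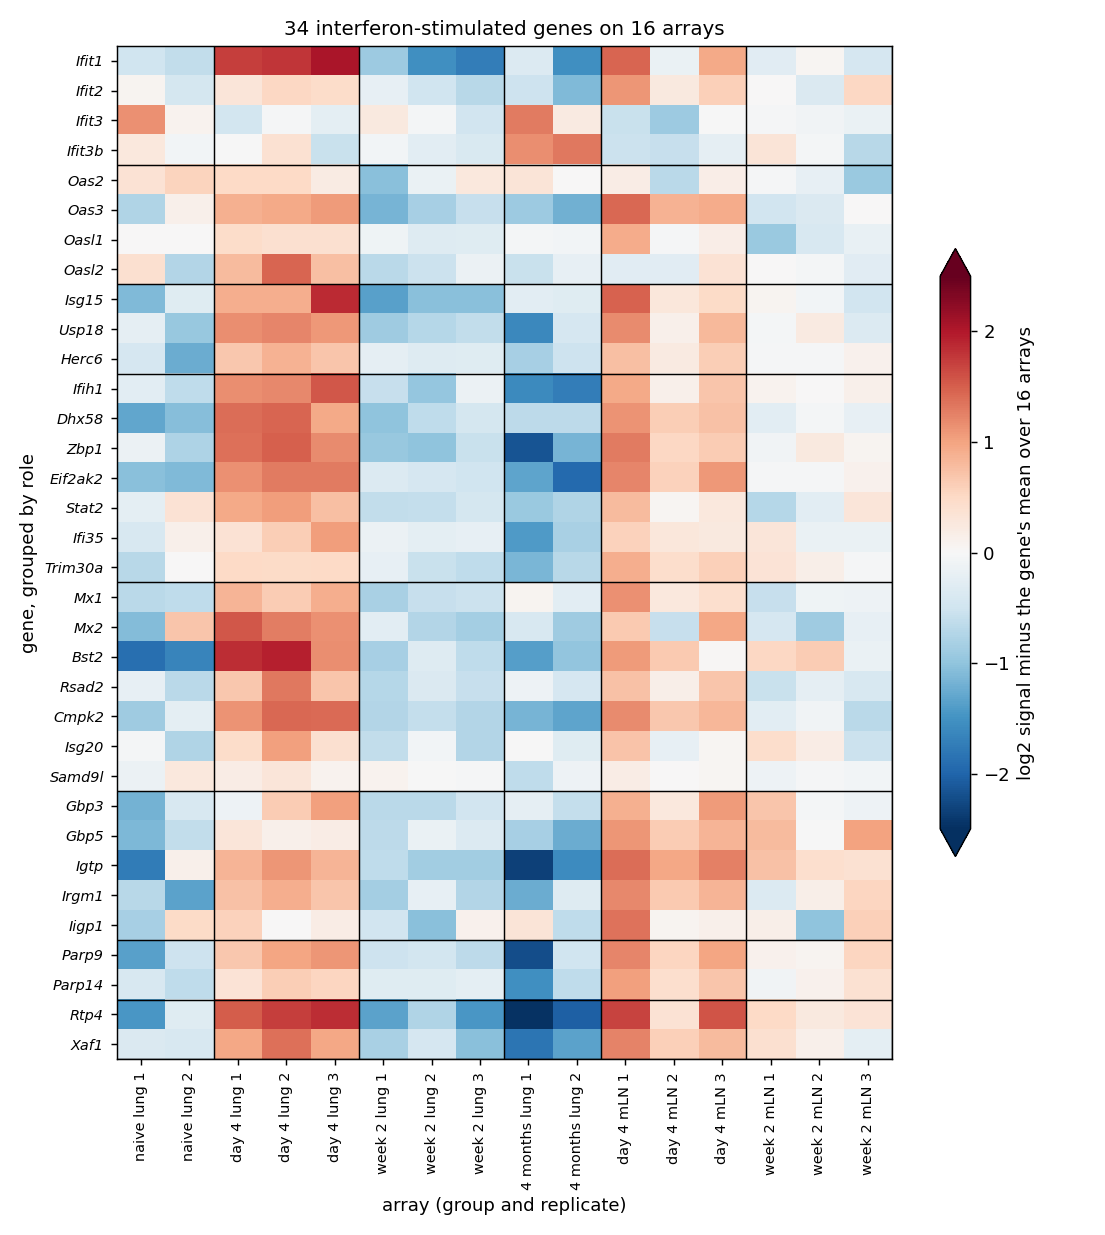
Log2 signal of each of the 34 members on each of the 16 arrays, minus the member's mean over all arrays, with members grouped by role and colour running from 2.5 below (blue) to 2.5 above (red). The day 4 arrays of lung and node are mostly red, the week 2 lung arrays are mostly blue, and Ifit3 and Ifit3b are reddest at 4 months.

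Among proteins that restrict viral release or replication, 6 of 7 members were higher. Bst2, or tetherin, which holds budding virus at the cell surface, read 5.31 and 5.55 in naive cells and 9.05, 9.14 and 8.37 at day 4. This was the largest change of any member, a 10.7-fold difference (log2 3.42 ± 0.31 SE, limma adjusted p = 4.68e-06). Bst2 also marks plasmacytoid dendritic cells. Siglech, another marker of those cells, read 4.32 and 4.28 in naive cells and 3.84, 4.12 and 4.04 at day 4. Irf8, on the same list of dendritic cell markers, read 4.30 and 4.39, then 5.93, 5.81 and 5.10. Of the 9 measured markers on that list, Bst2 included, 2 were called higher and 1 lower (median -0.28). Over all genes 10.8% were higher and 5.73% lower. The part of dendritic cells in the Bst2 change was not tested. Rsad2, or viperin, which makes an antiviral nucleotide, read 4.17 and 3.71 in naive cells and 5.05, 5.70 and 5.08 at day 4, a change of 1.33 ± 0.24 (limma adjusted p = 0.00162). Its neighbour Cmpk2, a nucleotide kinase, rose by 1.89 ± 0.23. Mx1 and Mx2, dynamin-like GTPases that block viral replication, rose by 1.45 and 1.53. Isg20, an exonuclease, went from 6.32 and 5.62 to 6.82, 7.39 and 6.76, a rise of 1.02 ± 0.33 (limma adjusted p = 0.0440). The seventh, Samd9l, read 6.31 and 6.71 in naive cells and 6.63, 6.75 and 6.53 at day 4, so its groups overlapped.

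All 7 sensors and signalling members were higher at day 4. Dhx58, a helicase that tunes RNA sensing, read 3.36 and 3.59 in naive cells and 6.04, 6.11 and 5.60 at day 4, a 5.43-fold rise (log2 2.44 ± 0.22 SE, limma adjusted p = 4.23e-06). Eif2ak2, the kinase PKR that stops translation on double-stranded RNA, read 4.93 and 4.86, then 7.11, 7.27 and 7.26, a rise of 2.32 ± 0.21 (limma adjusted p = 4.84e-06). Both genes were therefore separated from naive cells by far more than the spread among the arrays of either group. Zbp1, a sensor of Z-form nucleic acid, rose by 1.81 and Ifih1, the RNA sensor MDA5, by 1.76. Stat2, which carries type I interferon signals to DNA, read 6.03 and 6.63 in naive cells and 7.22, 7.31 and 7.01 at day 4, a smaller rise of 0.85 ± 0.27 (limma adjusted p = 0.0430). Trim30a and Ifi35 rose by 0.84 and 0.82.

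The ubiquitin-like protein Isg15 and both enzymes of its cycle on the list were higher. Isg15 read 4.03 and 4.82 in naive cells and 6.03, 6.03 and 6.99 at day 4, a rise of 1.92 ± 0.35 (limma adjusted p = 0.00147). Usp18, which removes Isg15 from proteins and restrains the type I receptor, read 5.92 and 5.20, then 7.32, 7.38 and 7.24, a rise of 1.75 ± 0.33 (limma adjusted p = 0.00207). Herc6, the ligase that attaches Isg15 in mice, rose by 1.58 ± 0.22.

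The IFIT and OAS families were split. Ifit1, which binds viral RNA lacking host cap methylation, read 5.29 and 5.17 in naive cells and 7.51, 7.57 and 7.82 at day 4, a 5.28-fold rise (log2 2.40 ± 0.39 SE, limma adjusted p = 7.20e-04). Its relatives were not called. Ifit2 differed by 0.61, Ifit3b by -0.16 and Ifit3 by -0.86 ± 0.34 (limma adjusted p = 0.0940), with 7.20 and 6.15 in naive cells above 5.60, 6.03 and 5.82 at day 4. In the OAS family of enzymes and relatives that respond to double-stranded RNA, Oas3 rose by 1.28 and Oasl2 by 1.16. Oas2 read 4.49 and 4.69 in naive cells and 4.64, 4.63 and 4.34 at day 4, a difference of -0.05 ± 0.35, and Oasl1 differed by 0.42, also not called.

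Among GTPases of the GBP and IRG families, which act on the vacuoles of intracellular pathogens, 4 of 5 members were higher. Irgm1 read 5.16 and 4.50 in naive cells and 6.58, 6.75 and 6.54 at day 4, a rise of 1.79 ± 0.31 (limma adjusted p = 9.77e-04). Igtp rose by 1.74, although its naive arrays stood apart at 5.14 and 7.02. Gbp3 and Gbp5 rose by 1.30 and 1.08. Iigp1 was dim, at 2.51 and 3.81 in naive cells and 3.92, 3.35 and 3.52 at day 4, and its groups overlapped. Rtp4, which restrains sensor signalling, read 4.65 and 5.81, then 7.62, 7.84 and 7.95, a 5.95-fold rise (log2 2.57 ± 0.37 SE, limma adjusted p = 2.44e-04). Parp9 and Parp14, of the ADP-ribosylation family, rose by 1.86 and 1.02, and Xaf1, which promotes cell death, by 1.49.

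The naive arrays agreed less with each other than the arrays of other groups did, and limma's array weights gave them 0.439 each, against 0.681 to 1.81 for the arrays of the groups of 3. With such weights 19 of the 34 members were higher at day 4 than in naive cells, where 5.91% of all genes were, and Isg20, Mx2, Oasl2, Stat2, Gbp3, Gbp5, Trim30a and Ifi35 were no longer called. Of 11 T cell markers 6 were lower at day 4 than in naive cells, as were 3 of 9 NK cell and ILC1 markers. Over all genes 5.73% were lower. The mean of the NK cell and ILC1 markers was 4.90 and 4.83 in naive cells and 3.84 to 4.13 at day 4. Klrd1, an NK cell receptor chain, read 7.35 and 7.10 in naive cells and 3.01, 2.72 and 2.90 at day 4. The part of these markers in the result was not tested. On day 4 lung replicate 3, the array of that group low in macrophage markers, the member mean was 6.38, and on replicates 1 and 2 it was 6.33 and 6.49. The macrophage list mean of replicate 3 was 4.66. Chil3, 1 marker of that list, still read 9.19 there, against 11.39 and 11.43 on replicates 1 and 2 and 7.23 and 4.04 in naive cells. With the 3 macrophage-high lung arrays removed, 12 members were called, the median change was 1.37, and 2.44% of all genes were called higher. That choice was made after the values were seen and leaves a single day 4 lung array, assumed to vary like the other groups. Bst2, Ifit1, Isg15, Rtp4, Mx1, Ifih1, Dhx58, Zbp1, Cmpk2, Eif2ak2 and Herc6 were called under every alternative that was fitted for this comparison.

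**Figure D2:**
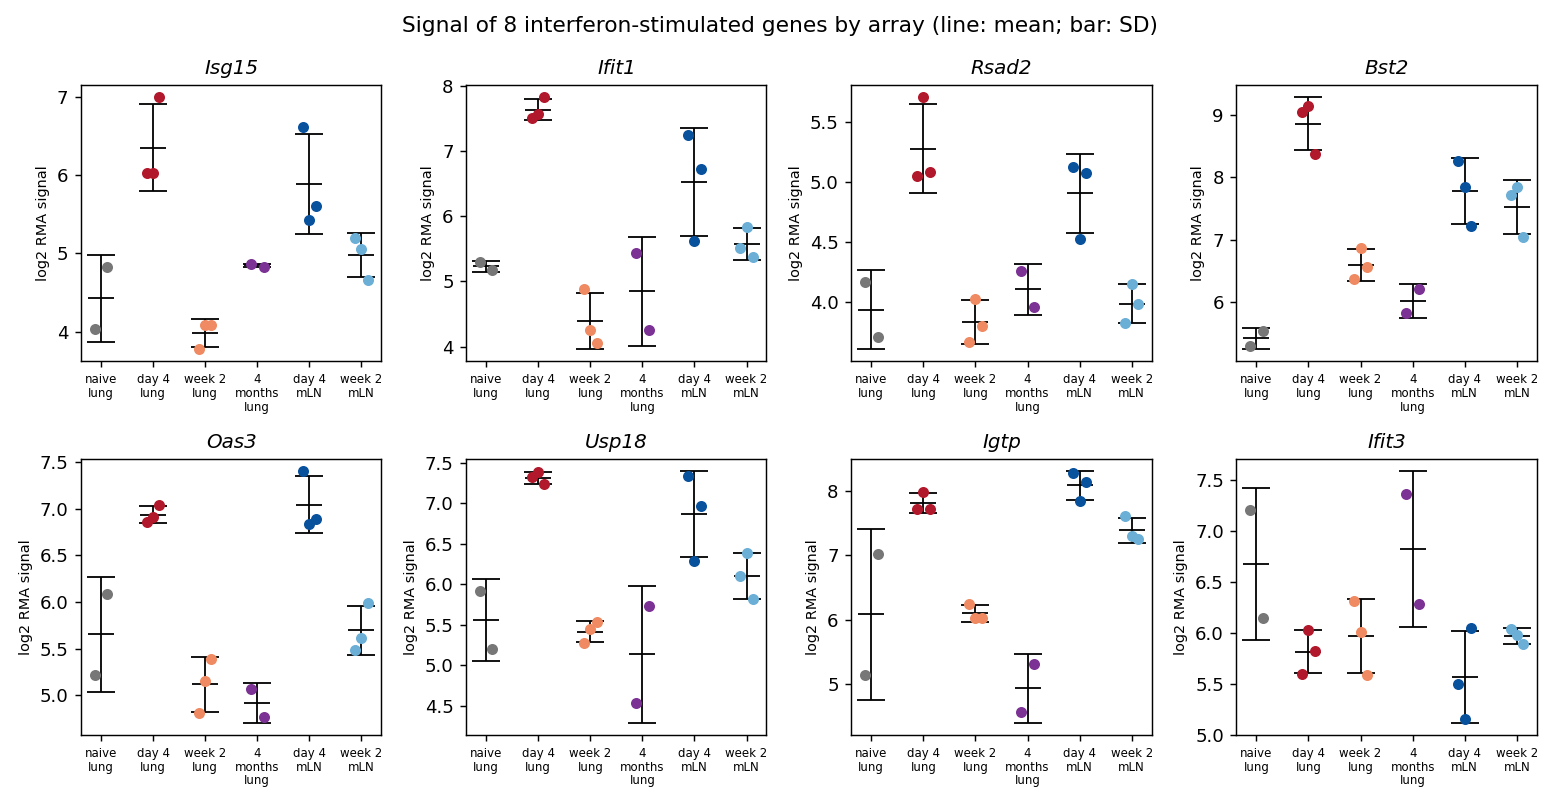
Log2 signal of 8 members on every array, 1 point per array, with the mean and SD of each group of 2 or 3 arrays. Bst2 rises from 5.31 and 5.55 in naive cells to between 8.37 and 9.14 at day 4 in lung, while Ifit3 peaks at 7.20 on a naive array and 7.36 on a 4-month array.

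In lung most members were lower at week 2 than at day 4. Of the 34 members, 22 were lower at week 2 than at day 4 and none was higher, where 1.39% of all genes were lower and 0.419% higher. The median member change was -1.45, against 0.01 over all genes, and 33 of 34 members lay below 0. The member mean was 4.95, 5.01 and 5.0 at week 2, below every day 4 array and close to the 4.99 and 5.16 of naive cells.

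Ifit1 fell furthest, to 4.88, 4.26 and 4.05 at week 2 from the day 4 values above 7.5, a 9.45-fold drop (log2 -3.24 ± 0.35 SE, limma adjusted p = 7.61e-05). Rtp4, at 4.76, 5.36 and 4.66, fell 7.35-fold (log2 -2.88 ± 0.33 SE, limma adjusted p = 1.28e-04). Isg15, at 3.78, 4.09 and 4.08, fell 5.15-fold (log2 -2.37 ± 0.31 SE, limma adjusted p = 4.56e-04). Ifit1 was below both naive arrays on all 3 week 2 arrays, while Rtp4 and Isg15 lay within or near the range of the naive arrays.

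Bst2 fell less far relative to its rise. It read 6.37, 6.87 and 6.56 at week 2, a change of -2.26 ± 0.28 from day 4 (limma adjusted p = 2.60e-04), and all 3 arrays stayed above both naive arrays. Zbp1, at 6.53, 6.48 and 6.93, changed by -2.19 ± 0.26 and Cmpk2, at 5.02, 5.16 and 5.02, by -2.01 ± 0.20. Usp18, at 5.27, 5.45 and 5.53, changed by -1.89 ± 0.30 (limma adjusted p = 0.00175). Rsad2, at 3.67, 4.03 and 3.80, changed by -1.44 ± 0.22 (limma adjusted p = 0.00137), and Mx1 by -1.45.

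Stat2 read 5.66, 5.67 and 5.83 at week 2, a change of -1.46 ± 0.24 (limma adjusted p = 0.00316), and all 3 arrays were below both naive arrays. Irgm1, at 4.99, 5.64 and 5.12, changed by -1.37 ± 0.27 (limma adjusted p = 0.0133). By role, all 3 members of the Isg15 cycle fell, as did 6 of 7 sensors and signalling members, 5 of 7 restriction members, 2 of 5 GTPases, 2 of 4 OAS members and 1 of 4 IFIT members.

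The 12 members not called were Ifit2, Ifit3, Ifit3b, Isg20, Oas2, Oasl1, Gbp3, Gbp5, Iigp1, Parp14, Ifi35 and Samd9l. In 7 of these (Ifit2, Isg20, Oasl1, Gbp3, Gbp5, Parp14 and Ifi35) every week 2 array was nonetheless below every day 4 array, so that this held for 29 of 34 members and for 11.9% of all genes. Isg20 read 5.75, 6.29 and 5.63 and changed by -1.10 ± 0.29 (limma adjusted p = 0.0785). Oas2 read 3.09, 3.97 and 4.40 and changed by -0.72 (limma adjusted p = 0.359), and Iigp1 read 2.85, 2.29 and 3.45 and changed by -0.73 (limma adjusted p = 0.595). Ifit3, at 6.31, 6.01 and 5.59, changed by 0.16 ± 0.31.

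The macrophage-high arrays were unevenly spread over these groups as well. Week 2 lung replicate 3, the array high in those markers, had a member mean of 5.0, against 4.95 and 5.01 on the others. Without the 3 macrophage-high arrays the median member change was -1.47, and 7 members were called (Ifit1, Isg15, Rtp4, Oas3, Ifih1, Dhx58 and Cmpk2), where 0.189% of all genes were lower.

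**Figure D3:**
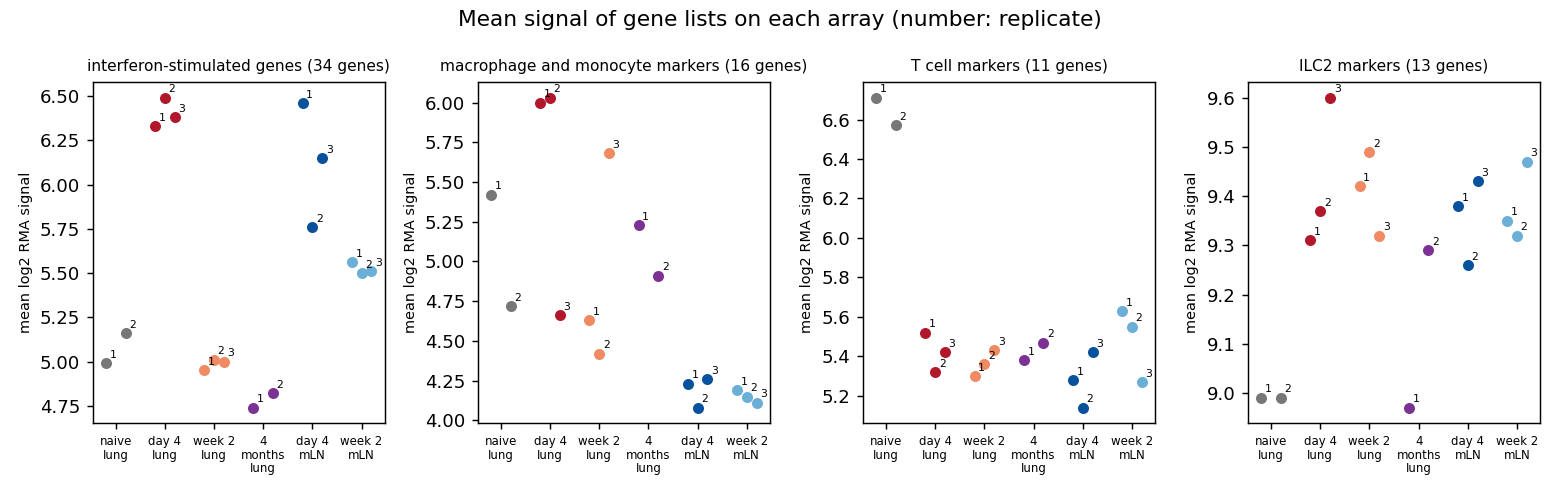
Mean log2 signal of the 34 members and of 3 marker lists on each array, with the replicate number beside each point and a separate vertical scale in each panel. Member means at day 4 in lung sit between 6.33 and 6.49 on arrays whose macrophage marker means run from 4.66 to 6.03. The array at 4.66 still read 9.19 for the macrophage marker Chil3.

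In the lymph node fewer members were called over the same interval. Oas3, Cmpk2, Dhx58, Eif2ak2, Rsad2 and Mx1 were lower (6 of 34) and none was higher, where 1.18% of all genes were lower and 0.528% higher. The median member change was -0.64 and that of all genes was -0.00, and 32 of 34 members lay below 0. The member mean was 6.46, 5.76 and 6.15 at day 4 and 5.56, 5.50 and 5.51 at week 2, so the groups did not overlap.

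Oas3, whose product makes the messenger that activates RNase L, read 7.40, 6.84 and 6.89 at day 4 and 5.49, 5.61 and 5.99 at week 2, a change of -1.35 ± 0.23 (limma adjusted p = 0.00326). Cmpk2 read 6.93, 6.42 and 6.58, then 5.49, 5.66 and 5.08, a change of -1.23 ± 0.20 (limma adjusted p = 0.00200). Dhx58 read 5.78, 5.26 and 5.38, then 4.39, 4.60 and 4.44, a change of -1.0 ± 0.19 (limma adjusted p = 0.00892). The week 2 arrays of all 3 genes lay below all day 4 arrays of the node.

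Eif2ak2 went from 7.18, 6.55 and 7.05 to 5.94, 5.93 and 6.07, a change of -0.95 ± 0.19 (limma adjusted p = 0.0108). Rsad2 went from 5.12, 4.53 and 5.07 to 3.83, 4.15 and 3.99, a change of -0.92 ± 0.22 (limma adjusted p = 0.0391). Mx1 went from 4.84, 3.95 and 4.12 to 3.12, 3.59 and 3.57, a change of -0.88 ± 0.22 (limma adjusted p = 0.0490).

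Among the 3 day 4 node arrays, replicate 1 was the highest for most members and replicate 2 the lowest. Without day 4 mLN replicate 1 the count was 2, without day 4 mLN replicate 3 it was 3, without week 2 mLN replicate 2 it was 3 and without day 4 mLN replicate 2 it was 9. These counts have no share over all genes beside them, so their movement is not by itself a result about the members. Oas3 and Cmpk2 were called under every alternative fitted for this comparison.

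Some members that fell steeply in lung were not called in the node. Ifit1 read 7.24, 5.62 and 6.73 at day 4 and 5.51, 5.84 and 5.37 at week 2, so the groups overlapped (log2 -0.96 ± 0.35 SE, limma adjusted p = 0.314). Bst2 read 8.26, 7.85 and 7.22, then 7.71, 7.84 and 7.04, a change of -0.25 ± 0.28 (limma adjusted p = 0.936). Isg15 read 6.61, 5.42 and 5.61, then 5.20, 5.06 and 4.66, a change of -0.91 ± 0.31 (limma adjusted p = 0.251). Of these 3 genes, Isg15 alone had node groups that did not overlap.

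Usp18 went from 7.34, 6.29 and 6.96 to 6.10, 6.38 and 5.82 (log2 -0.77), Stat2 from 7.06, 6.32 and 6.53 to 5.55, 6.00 and 6.57 (log2 -0.60) and Irgm1 from 7.04, 6.49 and 6.70 to 5.50, 6.00 and 6.38 (log2 -0.78), none of them called. Isg20 went from 7.08, 6.17 and 6.42 to 6.80, 6.56 and 5.82 (log2 -0.17) and Iigp1 from 4.70, 3.40 and 3.47 to 3.48, 2.34 and 3.94 (log2 -0.60). Oas2 changed by -0.28 and Ifit3 by 0.40, also not called.

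The lung and node comparisons share no arrays. The estimated change was lower in lung than in node for 33 of the 34 members (97.1%), with Oasl1 the exception, against 48.7% of all genes. Over the 34 members the change in node correlated with the change in lung at r = 0.656 (Spearman 0.613), against 0.400 (0.245) over all 22180 genes. These coefficients describe genes measured on the same arrays and carry no test.

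**Figure D4:**
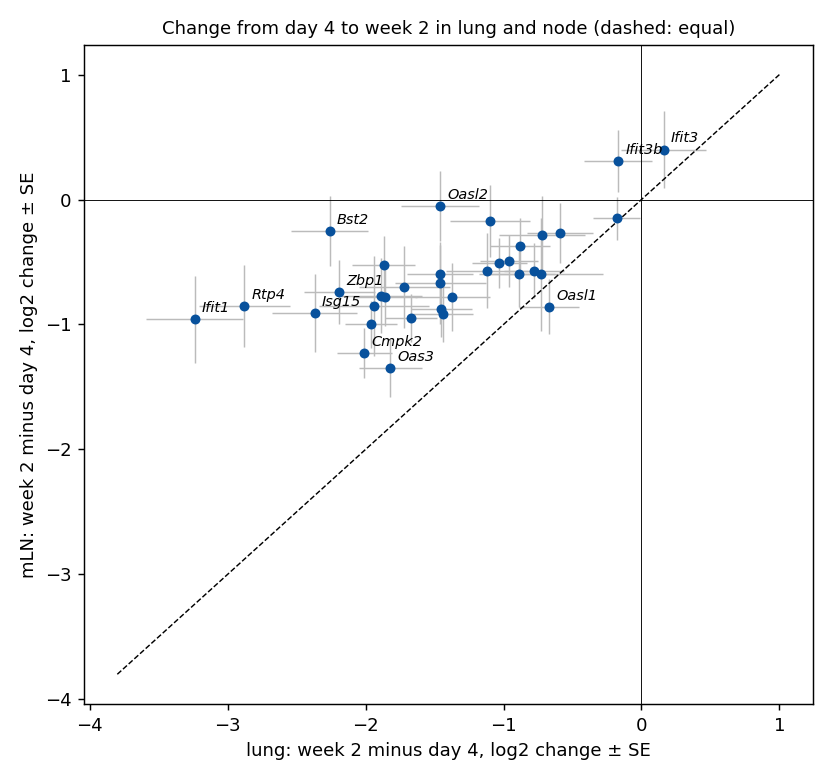
Change from day 4 to week 2 in lung (horizontal) and in mLN (vertical) of each of the 34 members in log2 units with SE, where the dashed line marks equal change. All members but Oasl1 lie above the line, and Ifit1 (-3.24 in lung, -0.96 in node) and Bst2 (-2.26, -0.25) are among the farthest from it.

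The test of that difference, the change in node minus the change in lung, called none of the 34 members, where 0.0676% of all genes were called higher and 0.113% lower. The median member difference was 0.66, and 15 members had an unadjusted p under 0.05, as did 1414 of the 22180 genes. Bst2 was nearest to the threshold, at 2.01 ± 0.39 (95% interval 1.18 to 2.85, limma adjusted p = 0.0529), followed by Ifit1 at 2.28 ± 0.50 (1.23 to 3.33, limma adjusted p = 0.0864) and Rtp4 at 2.03 ± 0.47 (1.05 to 3.01, limma adjusted p = 0.112). The result lay at the threshold. With array weights 5 members were higher (Ifit1, Bst2, Rtp4, Oasl2 and Zbp1), where 0.518% of all genes were. A limma fit restricted to the 12 arrays from triplicate groups called 4 (Ifit1, Bst2, Rtp4 and Zbp1), at adjusted p from 0.0471 to 0.0486, where 0.248% of all genes were higher. With the 3 macrophage-high arrays left out limma called none of the members and 0.0496% of all genes as higher. Leaving out 1 array gave 2 calls without day 4 mLN replicate 1, 1 without day 4 lung replicate 3 or week 2 mLN replicate 3, and 0 otherwise. The macrophage marker list differed between lung and node at day 4, with 3 of 16 lower in node and 1 higher. Over all genes 1.35% were lower in node and 0.978% higher. The part of the macrophage marker list in the difference was not tested.

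At day 4 no member was called different between node and lung, where 0.978% of all genes were higher in node and 1.35% lower. The median member difference was -0.30, and 9 members had an unadjusted p under 0.05, as did 2320 of the 22180 genes. Among these 9 were Ifit1 at -1.10 ± 0.35, Bst2 at -1.08 ± 0.28 (limma adjusted p = 0.0537) and Oasl2 at -1.06 ± 0.28 (limma adjusted p = 0.0568). Bst2 and Ifit1 were lower on every node array than on every lung array. Gbp5, at 5.40, 4.93 and 5.15 in node against 4.61, 4.42 and 4.48 in lung, lay the other way (0.66 ± 0.24). Isg15 differed by -0.47, Rsad2 by -0.37, Usp18 by -0.45, Stat2 by -0.55, Oas2 by -0.52, Ifit3 by -0.25, Isg20 by -0.43, Irgm1 by 0.12 and Iigp1 by 0.26, none called.

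At week 2 Rtp4, at 6.61, 6.35 and 6.45 in node against 4.76, 5.36 and 4.66 in lung, was the 1 member called (1.54 ± 0.33, limma adjusted p = 0.0338), where 0.334% of all genes were higher and 0.446% lower. The median difference was 0.51, 30 members lay above 0, and in 18 every node array was above every lung array, as in 9.97% of all genes. Those 18 include Ifit1 (1.18), Igtp (1.30 ± 0.33, limma adjusted p = 0.0949), Isg15 (0.99), Gbp5 (0.98), Bst2 (0.93), Zbp1 (0.91) and Usp18 (0.68). Igtp read 7.62, 7.30 and 7.26 in node and 6.25, 6.02 and 6.02 in lung, and all node values exceeded both naive lung values. Rsad2 differed by 0.15, Stat2 by 0.32, Oas2 by -0.08, Ifit3 by -0.00, Isg20 by 0.50, Irgm1 by 0.71 and Iigp1 by 0.39, none called.

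The count of 1 at week 2 did not hold everywhere: it was 0 when quantile normalization was repeated or when week 2 lung replicate 1 or 3, or week 2 mLN replicate 1 or 3, was left out.

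Against naive lung cells, lung ILC2s at week 2 differed in 1 member of 34, where 6.75% of all genes were higher and 2.87% lower. Bst2 was 2.25-fold higher (log2 1.17 ± 0.31 SE, limma adjusted p = 0.0272). It was not called with array weights (limma adjusted p = 0.126), without either naive replicate, or without week 2 lung replicate 2 or 3. The median member change was -0.12, against -0.04 over all genes. Ifit1 differed by -0.84, Ifit3 by -0.71, Oas2 by -0.77, Stat2 by -0.61 and Isg15 by -0.44, while Usp18 (-0.14), Rsad2 (-0.11) and Isg20 (-0.08) lay near naive. Irgm1 differed by 0.42 and Iigp1 by -0.29. None of these was called. Without naive replicate 1, 3 members were called, 1 higher and 2 lower.

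At 4 months 2 members were called lower than in naive cells and none higher, where 1.25% of all genes were lower and 0.717% higher. Ifih1 read 4.23 and 4.09 at 4 months against 5.55 and 5.19 in naive cells (-1.21 ± 0.28, limma adjusted p = 0.0338). Xaf1 read 5.45 and 5.92 against 6.90 and 6.87 (-1.20 ± 0.28, limma adjusted p = 0.0350). Both comparisons rest on 2 arrays a side, and with array weights neither gene was called (limma adjusted p = 0.684 and 0.655). Without 4-month lung replicate 1 no member was called, and without naive replicate 1 or 4-month replicate 2 there were 5.

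The median change against naive cells was -0.40. Bst2, at 5.83 and 6.22, stood 0.60 above naive cells without being called, and both 4-month arrays were above both naive arrays. Isg15, at 4.86 and 4.83, differed by 0.42, Ifit1, at 5.44 and 4.25, by -0.39, Stat2, at 5.34 and 5.52, by -0.90, and Rtp4, at 3.63 and 4.06, by -1.38 (limma adjusted p = 0.0827).

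Set against day 4, the 4-month cells had 27 members lower and 2 higher, where 16.6% of all genes were lower and 9.02% higher, with a median change of -1.56. Rtp4 was 15.5-fold lower (log2 -3.96 ± 0.37 SE, limma adjusted p = 4.49e-06). Zbp1, at 5.33 and 6.31, changed by -3.01 ± 0.29, Ifih1 by -2.97, Igtp by -2.89 and Eif2ak2, at 4.65 and 4.02, by -2.88 ± 0.21 (limma adjusted p = 6.12e-07). Bst2 changed by -2.83 ± 0.31. Of these 27 and 2 members, 19 were called under every alternative fitted.

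From week 2 to 4 months 6 members were lower and 1 higher, where 11.5% of all genes were lower and 4.85% higher. The 6 were Eif2ak2 (-1.21 ± 0.21, limma adjusted p = 0.00255), Igtp (-1.17), Ifih1 (-1.10), Ifi35 (-0.91), Xaf1 (-0.82) and Parp14 (-0.80). The share of members lower was 6 of 34, in a comparison where the 4-month arrays carried weights of 0.442. With array weights only Ifit3b (higher) and Eif2ak2 (lower) were called, where 1.06% of all genes were higher and 4.33% lower, and leaving out 1 lung array gave between 2 (4-month replicate 1) and 11 (4-month replicate 2) calls, with 3 without week 2 lung replicate 1 and 4 without replicate 2 or 3.

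Ifit3 and Ifit3b, of the same family as Ifit1, were the 2 members called higher at 4 months than at day 4. Ifit3b read 4.60 and 4.28 in naive cells, 4.34, 4.72 and 3.78 at day 4, 4.27, 4.09 and 3.97 at week 2 and 5.50 and 5.66 at 4 months. The 4-month arrays were above all others, and the gene was higher than at week 2 (1.47 ± 0.28, limma adjusted p = 0.00392) and than at day 4 (1.30 ± 0.28, limma adjusted p = 0.00373). Ifit3 read 7.36 and 6.28 at 4 months and was also higher than at day 4 (1.01 ± 0.34, limma adjusted p = 0.0402). That call was lost with array weights (limma adjusted p = 0.114), median centring (0.0606), only the groups compared (0.0682) and the 3 macrophage-high arrays left out (0.225). The promoters of these copies share a run of 169 bases, but their transcripts were not compared. Their probe sets may not separate them, and that was not tested here.

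**Figure D5:**
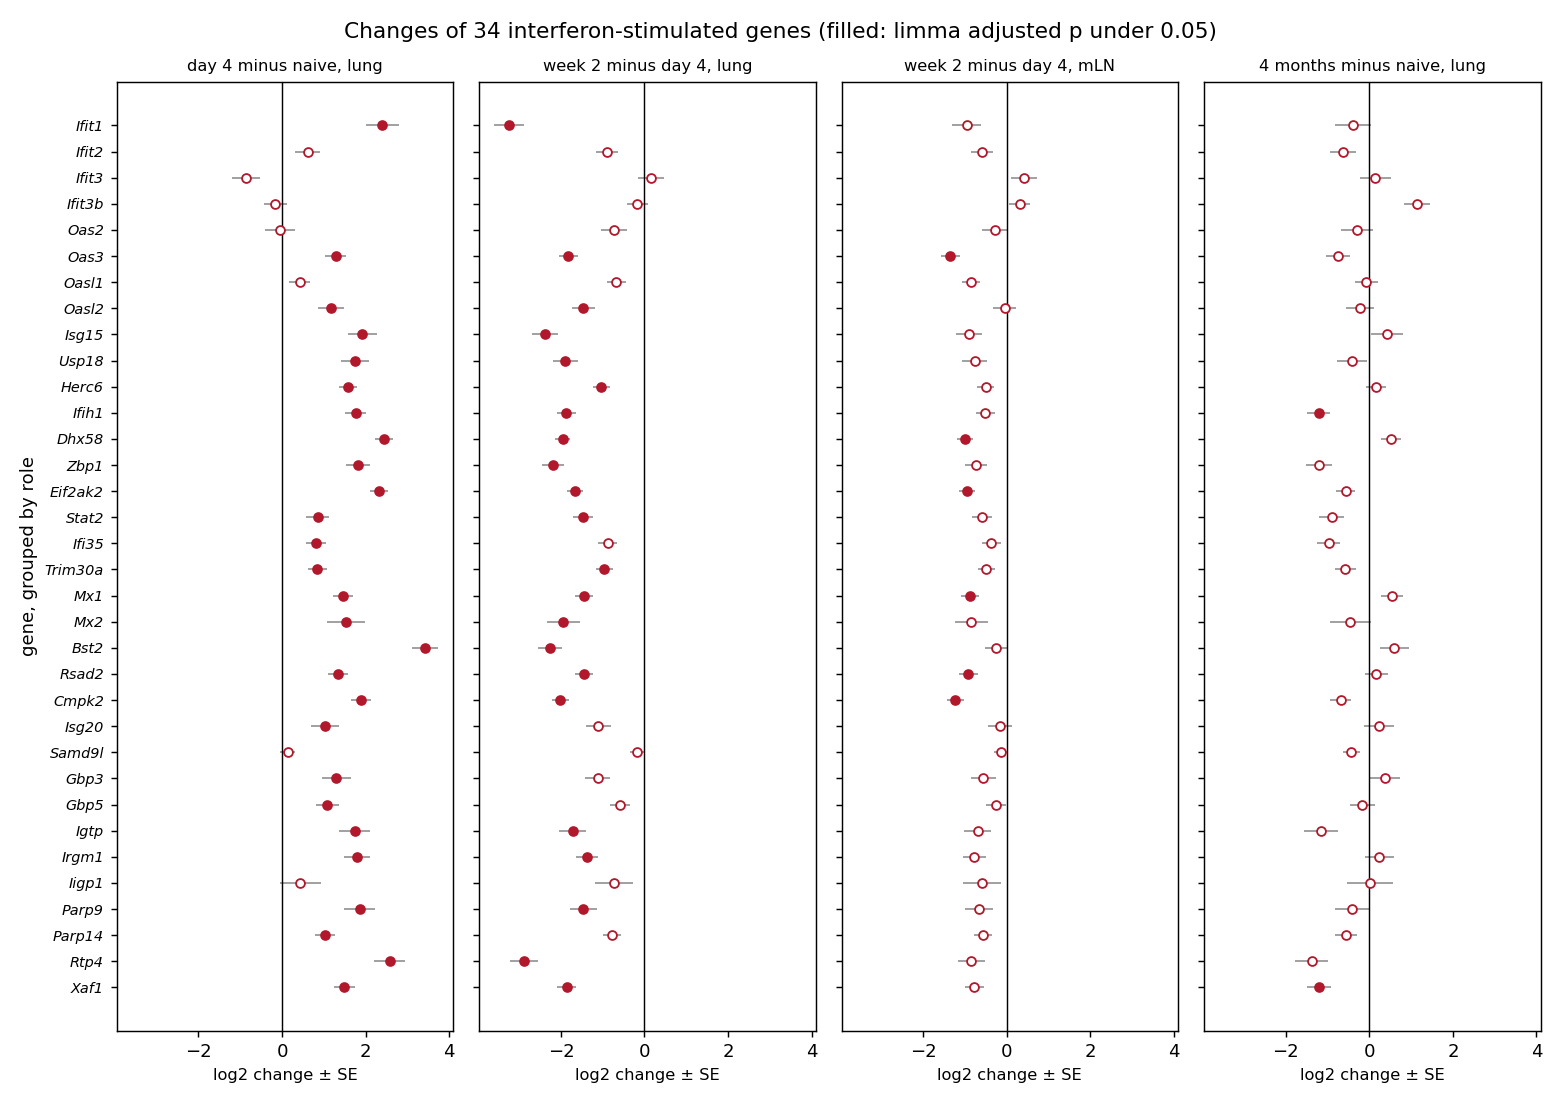
Log2 change with SE of the 34 members, by role, in 4 comparisons, with filled points where the limma adjusted p is under 0.05. In the first panel 27 members are filled to the right of 0, in the second 22 to the left, in the third 6 to the left and in the fourth 2 to the left.

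Upstream of the members, transcripts of interferon genes were not called higher in these cells at day 4. Interferon protein and interferon made by other cells were not measured. Of 17 measured ligand genes, none was called higher than naive and Ifng, Ifna2 and Ifnl3 were lower, Ifnl3 not with array weights (limma adjusted p = 0.115). Over all genes 10.8% were higher and 5.73% lower. Ifng read 5.09 and 4.46 in naive cells and 3.36, 3.46 and 3.41 at day 4, a change of -1.36 ± 0.21 (limma adjusted p = 3.89e-04), and the naive arrays were those high in T cell markers. Ifnb1 read between 1.42 and 2.47 on all 16 arrays, below the 40th percentile of all values (3.73). At 4 months 3 ligand genes (Ifna6, Ifna9 and Ifne) were higher than in naive cells, and with array weights none of them was called. Against week 2, 7 of the 17 were higher at 4 months (median 0.52), where 4.85% of all genes were. With array weights 4 of the 17 were, where 1.06% of all genes were. Against day 4, 7 were higher (median 0.56), where 9.02% of all genes were, and 4 with array weights, without a share beside it. The 4-month group has 2 arrays.

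Of 18 measured receptor and signalling genes, 4 were higher at day 4 than in naive cells and 1 was lower. Over all genes 10.8% were higher and 5.73% lower, so 1 lower of 18 is near that share. Irf7, which amplifies type I interferon responses, read 5.45 and 6.22 in naive cells, 7.08, 7.09 and 7.19 at day 4 and 5.63, 5.81 and 5.97 at week 2, a rise of 1.28 ± 0.23 (limma adjusted p = 0.00151) and a change of -1.32 ± 0.21 back (limma adjusted p = 0.00187). Irf9, the DNA-binding partner of Stat2, rose by 1.00 ± 0.23 (limma adjusted p = 0.00777, or 0.0711 with array weights) and changed by -0.92 ± 0.21 from day 4 to week 2 (limma adjusted p = 0.0289). Irf2 (1.50) and Jak2 (1.19) were higher at day 4, and their changes from day 4 to week 2 (-0.12 and -0.33) were not called. Socs1, a feedback inhibitor, ran the other way, with a change of -0.73 ± 0.24 from naive to day 4 (limma adjusted p = 0.0483, or 0.147 with array weights) and of 0.95 ± 0.22 from day 4 to week 2 (limma adjusted p = 0.0298).

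The receptor chains Ifnar1, Ifnar2, Ifngr1 and Ifngr2 were not called at day 4 against naive or at week 2 against day 4 in either tissue. Ifnar2 lay between 7.69 and 8.49 on all arrays. Ifngr1 was lower in node than in lung at week 2 (-1.15 ± 0.18, limma adjusted p = 0.00352), opposite in direction to the members, at 7.83, 7.96 and 8.26 in node and 9.15, 9.15 and 9.20 in lung.

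Of 46 measured interferon-inducible genes that are not members, 24 were higher at day 4 than naive and none lower (median 0.71). Over all genes 10.8% were higher and 5.73% lower. From day 4 to week 2, 15 were lower in lung and none higher (median -0.59), where 1.39% of all genes were lower. In node Ms4a4b and Oas1b were the 2 lower (median -0.37), where 1.18% of all genes were. With array weights 16 were higher at day 4, where 5.91% of all genes were. The other counts became 23 lower at week 2 in lung and 7 lower in node. Array-weighted shares over all genes are not given for those 2 counts, so their movement is not by itself a result about these genes. Apol9b (2.82 ± 0.29), the chemokine Cxcl10 (2.70 ± 0.41), Phf11b (2.16 ± 0.29) and the secreted glycoprotein Lgals3bp (1.90 ± 0.25) had the largest rises at day 4. Cxcl10 read 4.15 and 5.01 in naive cells and 6.73, 7.14 and 7.95 at day 4.

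Of 17 measured antigen presentation genes that interferon can induce, 7 were higher at day 4 than naive, where 10.8% of all genes were. At week 2, 7 were lower than at day 4 in lung, where 1.39% of all genes were. None was called in the node over time. With array weights 3 were higher at day 4, where 5.91% of all genes were, and 10 were lower at week 2. No array-weighted share over all genes is given for the 10. Among the called genes H2-Aa (2.07), an MHC class II chain also made by macrophages, H2-Ab1 (1.53), Psmb10 (1.34), an immunoproteasome subunit, and Psmb9 (0.95) had the largest rises, of which H2-Aa and H2-Ab1 were not called with array weights, and macrophage markers were high on day 4 replicates 1 and 2. Psmb9 was 1.23 ± 0.19 higher in node than in lung at week 2 (limma adjusted p = 0.00298). Of 15 measured sensing genes upstream of interferon, 5 were higher at day 4 than naive (Trim25, Tank, Sting1, Ddx58 and Aim2), where 10.8% of all genes were. Trim25, a ligase that activates Rig-I, was lower at week 2 than at day 4 (-1.01 ± 0.19, limma adjusted p = 0.00899).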

How the data were processed

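The 16 arrays measured total RNA of isolated ILC2s in 6 groups. Trizol extraction and a Nugen Encore biotin kit prepared the RNA, per the labels' protocols. The authors deposited log2 signals per probe set, produced by RMA in Affymetrix Expression Console, as the submitters' processing notes name them. Software versions and genome build are not given in those sources. The log2 scale was checked against the range of the values. The spread of the deposited values was narrower on naive and 4-month arrays, and whether all arrays were normalized together is not given in the labels. Of 41345 probe sets, 23521 had 1 gene symbol, 1814 several and 16010 none. Per gene, the probe set with the highest mean was used, which left 22180 genes.

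One mean per group was fitted to all arrays with limma 3.58.1 in R 4.3.3, with 1 shared spread because naive and 4-month groups hold 2 arrays each, two-sided, and with Benjamini-Hochberg adjustment over all genes of a comparison (threshold 0.05). The script was tested on simulated data. With each group's own spread simulated, false calls were more frequent against naive than among groups of 3, and array-weighted results are given for that reason. Alternatives were median centring, repeated quantile normalization, a filter on dim genes (below the 40th percentile), trend and robust options, array weights, mean of probe sets, a replicate block, smaller fits and leaving out arrays. Nothing beyond the titles says that replicates are separate animals, so p-values measure the spread between these arrays. The members and gene lists were chosen with earlier results of these data known. Named genes were a fixed list of members and of pathway genes, the members with the largest called changes whose groups did not overlap, and up to 4 genes per list. Any other member or pathway gene with values was chosen after they were seen.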

Additional observations from a re-analysis of the deposited data

How the results depend on the processing

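Counts of members called, by comparison, moved with the following choices. The share of all genes called moved too. With array weights the share higher went from 10.8% to 5.91% for day 4 against naive. For the difference of the changes it went from 0.0676% to 0.518%. Counts here, in the next paragraph and wherever 1 array was left out are given without such shares. A moved count is therefore not by itself a result about the members. With the 3 macrophage-high lung arrays left out, a choice made after the values were seen, 12 members (of 27) were called for day 4 against naive, 7 (of 22) for week 2 against day 4 in lung, 0 (of 1) for week 2 against naive, 2 (of 7) for 4 months against week 2 and 0 (of 1) for node against lung at week 2. Array weights gave 0 for week 2 against naive, 0 (of 2) for 4 months against naive, 2 for 4 months against week 2, 2 (of 0) for node against lung at day 4, 9 at week 2 and 5 (of 0) for the difference of the changes. Repeated quantile normalization gave 0 for week 2 against naive, 4 for 4 months against naive, 3 for 4 months against week 2 and 0 for node against lung at week 2, and median centring gave 2 for week 2 against naive. Fits of only the groups compared gave 0 for 4 months against naive, 5 for node against lung at week 2 and 4 for the difference of the changes. The 12 triplicate arrays gave 1 for node against lung at day 4, 3 at week 2 and 4 for the difference. Leaving out dim genes gave 2 at day 4 and 1 for the difference, and the trend and robust options gave 1 and 1.

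Leaving out 1 array gave 19 to 25 calls for day 4 against naive, 0 to 3 for week 2 against naive, 0 to 5 for 4 months against naive, 15 to 21 for week 2 against day 4 in lung and 2 to 9 in node, 2 to 11 for 4 months against week 2, 25 to 28 for 4 months against day 4, 0 to 1 for node against lung at day 4 and at week 2, and 0 to 2 for the difference. Without naive replicate 1 the 3 members called at week 2 were mostly lower (1 higher, 2 lower), which turned the direction, and Igtp differed from naive by -0.92 (limma adjusted p = 0.0481). Without naive replicate 2 it differed by 0.96. The cause was not tested. Deviations of same-numbered arrays from their group means correlated at -0.104 to 0.184 over 36 pairs (median 0.0283). Arrays with different numbers gave -0.173 to 0.137 over 70 pairs (median -0.0163). With so few arrays per group these values cannot settle whether the numbers pair arrays, and the main fit did not pair them. The replicate block gave 26 calls for day 4 against naive, 23 for week 2 against day 4 in lung, 4 in node, 1 for node against lung at day 4 and 1 for the difference.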
